A study of Arabidopsis thaliana with 8 samples.

Results

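In 11-day-old Arabidopsis seedlings, 69 of 25198 listed genes had their lowest transcript level in the double mutant rlt1/2 and in no other genotype studied. They were chosen from the deposited per-length levels (FPKM, fragments scaled to transcript length and library size). Each gene had a mean of at least 1 FPKM in chr11/17, in fha2 and in Col, each of these means was at least 1.5 times the rlt1/2 mean, and both rlt1/2 libraries lay below all 6 other libraries. The low level in rlt1/2 is thus how the genes were found, and every value of rlt1/2 for them is given as a description with no test. The choice set no order among the 3 other genotypes, and that order was tested. It did keep each of them above rlt1/2, so genes that fall as low in another genotype are left out.

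The study sequenced messenger RNA of 4 genotypes, all in the Col background, with 2 libraries each. They were rlt1/2 (rlt1-/- rlt2-/-), chr11/17 (chr11-/- chr17-/-), fha2 (fha2-/-) and the wild type Col. Seedlings grew on MS plates with 16 h of light and 8 h of dark at 22 °C, and RNA came from 0.05 g of whole seedlings. Whether the 2 libraries of a genotype are separate cultures is not stated, so p-values reflect library spread that could be technical only.

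As background, ISWI complexes are ATP-driven machines that space nucleosomes along DNA. In Arabidopsis the ATPases CHR11 and CHR17 are alternative motors of the complex, and RLT1 and RLT2 are alternative DDT-domain subunits that bind them. FHA2 carries a forkhead-associated domain. The title of the series names a plant-specific ISWI subunit that acts in fertility and restrains the growth of the pistil. Plants without both motors or without both RLT proteins are known to flower early and to be small.

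The libraries held 20962202 to 22012119 expected counts, so 3 counts stood for 0.136 to 0.143 CPM, counts scaled to library size. Levels in CPM are scaled with TMM factors, and fold changes are log2 values from edgeR. Their standard errors (SE) were derived from its test, as the absolute log2 fold change over the square root of the F statistic. FHA2 transcripts were at 3.05 and 1.01 CPM in fha2, against 23.5 and 24.4 CPM in Col. CHR11 was at 73.4 and 69.7 CPM in the libraries labelled chr11/17, against 47.2 and 46.3 CPM in Col, and CHR17 was at 22.6 and 22.9 CPM against 17.2 and 22.5 CPM. Transcript levels therefore do not check the chr11/17 label, and these are called the libraries labelled chr11/17 here. Among 7 groups of tissue markers with 38 genes in all, none had its lowest summed level in rlt1/2. Summed mesophyll markers averaged 39760 CPM in rlt1/2, 16260 CPM in the libraries labelled chr11/17, 44710 CPM in fha2 and 70400 CPM in Col. Summed floral organ markers averaged 156.5, 304.1, 15.6 and 6.28 CPM in the same order, and summed seed markers 101.9, 321.5, 0.903 and 0.563 CPM, with CRU2 and CRU3 at 0 counts in both Col libraries. No marker was among the 69 genes. In whole seedlings, fewer cells of a type and less RNA per cell cannot be told apart.

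The same rule found 127 genes lowest in fha2 alone, 2894 lowest in the libraries labelled chr11/17 alone and 923 lowest in Col alone, and with the limits turned round 479 genes were highest in rlt1/2 alone. The level and library conditions were met by 366 genes, of which the fold limit kept 69. Just inside the limit lay AT5G17460, THO7 (AT5G16790) and the DOF factor gene CDF3, whose lowest other mean was 1.51 times the rlt1/2 mean. Just outside lay AT1G30475 at 1.498, RR5, a cytokinin response regulator, at 1.494, and AT3G04184 at 1.483. All 69 genes passed the filter on low counts, which kept 20866 genes. The log2 fold change of rlt1/2 over Col had a median of -1.38 over the 69 and ran between -4.33 and -0.89. Over the libraries labelled chr11/17 the median was -1.24 and over fha2 it was -1.26.

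**Figure D1:**
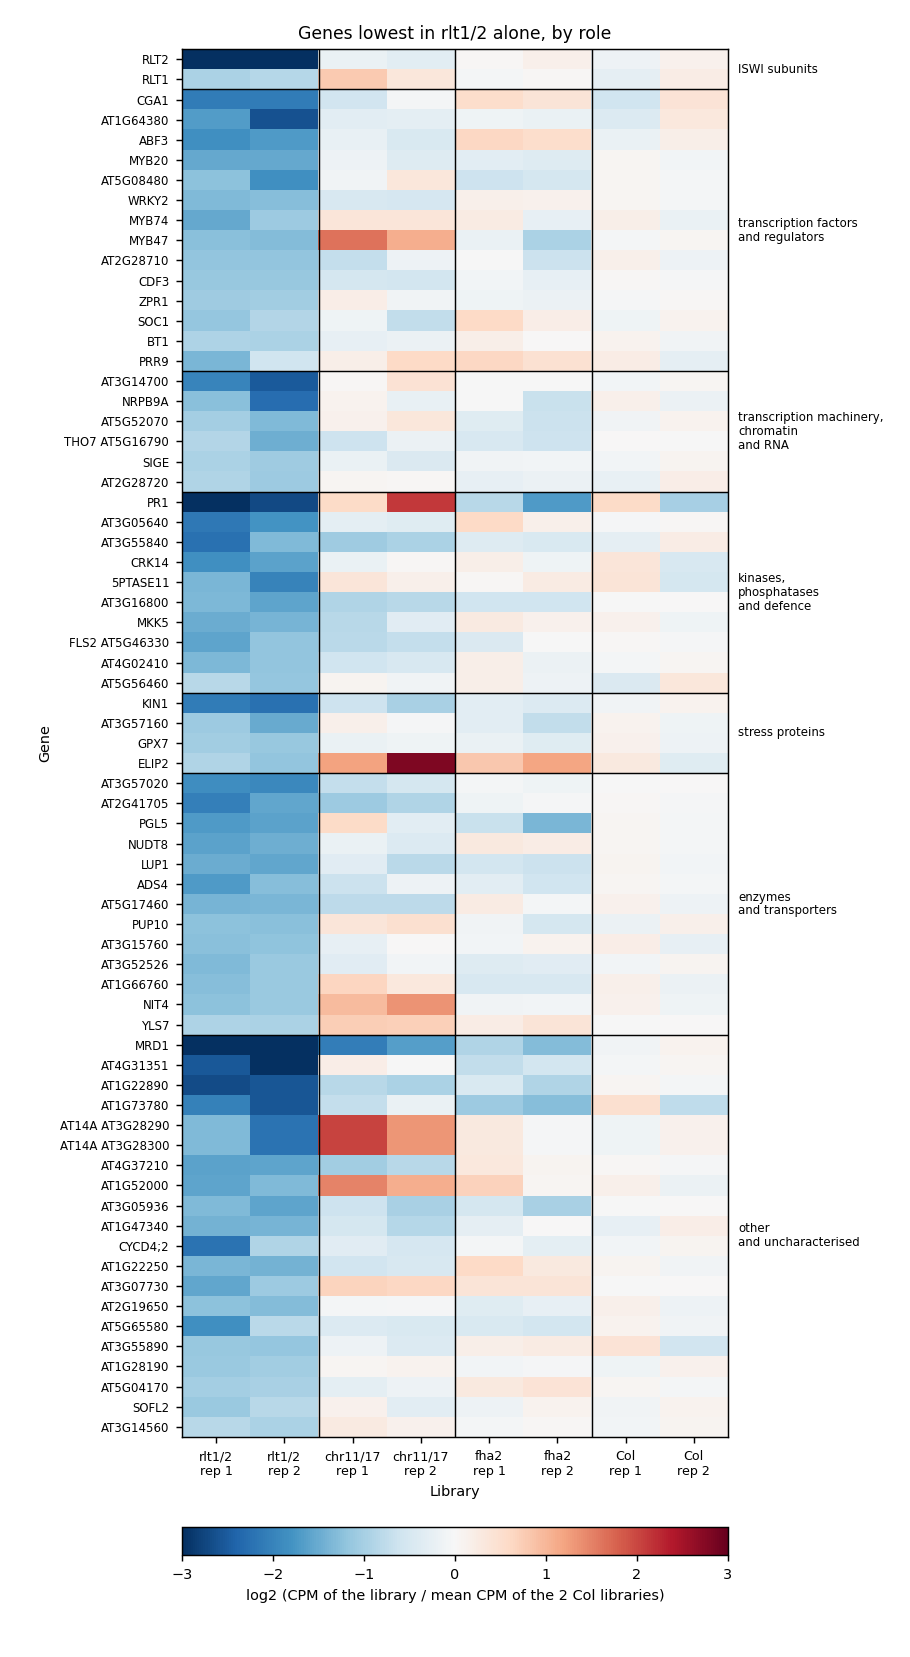
Levels of the 69 genes in every library, as log2 of the CPM divided by the mean of the 2 Col libraries, with genes as rows grouped by role and libraries as columns. Both rlt1/2 columns are blue throughout, which is how the genes were chosen, while the other columns are pale for most genes and red in both chr11/17 columns for ELIP2, MYB47 and both AT14A loci; values past 3 either way are drawn at the colour limit of 3.

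The 69 genes sorted by known or annotated role into 2 ISWI subunits, 14 transcription factors and regulators, 6 genes of transcription machinery, chromatin and RNA, 10 kinases, phosphatases and defence genes, 4 stress proteins, 13 enzymes and transporters, and 20 other genes. These roles were assigned after the members were known and carry no test. The median log2 fold change of rlt1/2 over Col was between -1.15 and -1.55 in each of these groups other than the ISWI pair, where it was -2.36.

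RLT1 and RLT2, the genes named in the mutant's label, were both among the 69. RLT2 was at 2.19 and 2.21 CPM in rlt1/2, 27.0 and 25.2 CPM in the libraries labelled chr11/17, 31.8 and 34.4 CPM in fha2, and 28.2 and 34.1 CPM in Col. RLT1 was at 15.9 and 16.8 CPM in rlt1/2, 52.8 and 38.9 CPM in the libraries labelled chr11/17, 29.1 and 31.5 CPM in fha2, and 25.4 and 35.7 CPM in Col. RLT2 was thus nearly lost in rlt1/2, while RLT1 kept a level of more than 15 CPM in both libraries. The log2 fold change of rlt1/2 over Col was -3.82 ± 0.14 (SE) for RLT2 and -0.90 ± 0.17 for RLT1. RLT1 overlaps AT1G28410, another listed gene, and its counts include fractions, so some of its reads may belong to the neighbour. RLT1 was 0.59 ± 0.16 higher in the libraries labelled chr11/17 on the log2 scale, set against Col (edgeR, adjusted p = 0.00561), a call lost without chr11/17 replicate 1 (adjusted p = 0.0676) or without Col replicate 1 (adjusted p = 0.0808). RLT2 differed by -0.25 ± 0.11 in that comparison and missed the threshold (edgeR, adjusted p = 0.0521), but passed it without Col replicate 1 at -0.39 (adjusted p = 0.0109). Of the 3 nearest genes on each side of RLT1 and of RLT2, 12 in all, 0 were among the 69.

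Transcription factors and regulators made up the largest group with a common kind of role. CGA1, a GATA factor that promotes chloroplast development and responds to cytokinin, was at 1.67 and 1.65 CPM in rlt1/2, 4.72 and 6.76 CPM in the libraries labelled chr11/17, 10.2 and 9.3 CPM in fha2, and 4.71 and 9.44 CPM in Col. Its Col libraries differed 2-fold and overlapped those of both other genotypes. ABF3, a bZIP factor that binds abscisic acid response elements, was at 15.1 and 16.7 CPM in rlt1/2, 46.9 and 39.7 CPM in the libraries labelled chr11/17, 83.8 and 78.6 CPM in fha2, and 47.2 and 61.5 CPM in Col. Fha2 had the highest ABF3 level and did not overlap Col. CDF3, a DOF factor known from photoperiodic flowering and stress tolerance, was at 36.9 and 37.0 CPM in rlt1/2, 56.5 and 55.4 CPM in the libraries labelled chr11/17, 76.6 and 69.2 CPM in fha2, and 83.8 and 79.1 CPM in Col. In CPM the 4 genotypes did not overlap for CDF3, but by mean FPKM fha2, at 39.3, lay above Col, at 36.8.

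Of the 3 MYB genes, MYB47 stood apart in the libraries labelled chr11/17. Its level was 4.82 and 4.64 CPM in rlt1/2, 35.3 and 24.2 CPM in the libraries labelled chr11/17, 9.98 and 5.97 CPM in fha2, and 11.0 and 11.9 CPM in Col. MYB74 was at 1.27 and 1.74 CPM in rlt1/2 and between 3.12 and 4.76 CPM in the 6 other libraries, and MYB20 was at 2.45 and 2.43 CPM in rlt1/2 and between 5.4 and 7.4 CPM elsewhere. The AP2/ERF-type factor AT1G64380 was at 1.58 and 0.824 CPM in rlt1/2 and between 3.78 and 6.29 CPM elsewhere. The group also held genes outside the naming rule, picked for their known roles after their values were seen. Of these, the flowering integrator SOC1 was at 9.77 and 11.8 CPM in rlt1/2, 19.8 and 13.0 CPM in the libraries labelled chr11/17, 32.7 and 25.0 CPM in fha2, and 20.0 and 23.5 CPM in Col. The clock regulator PRR9 averaged 4.24 CPM in rlt1/2, 10.7 CPM in the libraries labelled chr11/17, 11.8 CPM in fha2 and 8.07 CPM in Col, and its rlt1/2 libraries were apart at 3.11 and 5.38 CPM. ZPR1, a little zipper protein that restrains HD-ZIP III factors, averaged 9.76 CPM in rlt1/2, 21.1 CPM in the libraries labelled chr11/17, 18.3 CPM in fha2 and 20.3 CPM in Col.

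**Figure D2:**
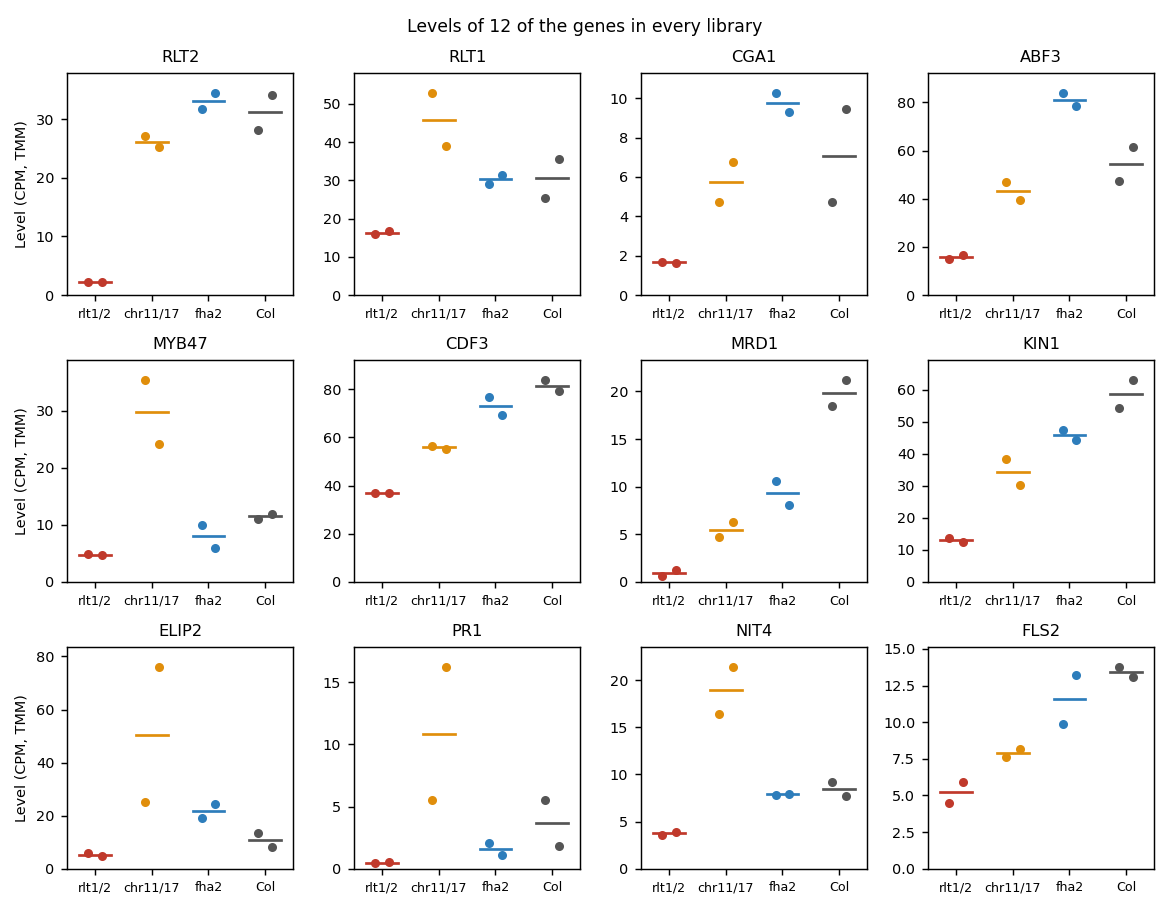
Level in CPM, scaled with TMM factors, of 12 of the 69 genes by genotype; points are the 2 libraries of a genotype, bars their mean, and each axis starts at 0. RLT2 is at 2.19 and 2.21 CPM in rlt1/2. MYB47, ELIP2, PR1 and NIT4 have their highest mean in the libraries labelled chr11/17. CDF3, MRD1, KIN1 and FLS2 have theirs in Col, but by mean FPKM CDF3 and FLS2 are highest in fha2.

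Among genes of transcription machinery and chromatin, SIGE, which encodes a sigma factor that directs the plastid RNA polymerase and responds to light and stress, was at 23.8 and 21.9 CPM in rlt1/2, 39.6 and 34.1 CPM in the libraries labelled chr11/17, 42.8 and 43.2 CPM in fha2, and 43.3 and 48.3 CPM in Col. AT2G28720, a histone gene whose product the annotation leaves unspecified, was at 19.5 and 17.3 CPM in rlt1/2 and between 30.6 and 41.9 CPM in the other libraries. It sits next to AT2G28710, a C2H2 zinc finger gene that is also among the 69 and had 0.394 and 0.390 CPM in rlt1/2 and 0.544 to 0.987 CPM elsewhere. No listed gene lies between the pair. AT3G14700, annotated in the SART-1 family of splicing-related proteins, was at 0.438 and 0.304 CPM in rlt1/2 and between 1.64 and 2.34 CPM elsewhere.

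The group of kinases, phosphatases and defence genes held 5 protein kinases. FLS2 (AT5G46330), the receptor kinase that binds bacterial flagellin, was at 4.51 and 5.94 CPM in rlt1/2, 7.62 and 8.16 CPM in the libraries labelled chr11/17, 9.89 and 13.3 CPM in fha2, and 13.8 and 13.1 CPM in Col. MKK5, a kinase of the MAP kinase cascade downstream of such receptors, was at 4.34 and 4.6 CPM in rlt1/2, 6.9 and 9.61 CPM in the libraries labelled chr11/17, 14.6 and 13.3 CPM in fha2, and 13.3 and 11.1 CPM in Col. Both genes had an intermediate mean in the libraries labelled chr11/17, which under TMM scaling did not overlap Col for either. For MKK5 that gap depends on the scaling. The lower call of MKK5 against Col, at -0.56 (edgeR, adjusted p = 0.00833), was lost under total counts (-0.27, adjusted p = 0.179). Leaving out chr11/17 replicate 1 (-0.34) or Col replicate 1 (-0.43) also lost this call. The lectin receptor kinase gene AT4G02410 averaged 5.99 CPM in rlt1/2, 9.84 CPM in the libraries labelled chr11/17, 14.4 CPM in fha2 and 14.4 CPM in Col. The cysteine-rich receptor kinase gene CRK14 was lower in level, with 0.745 and 0.867 CPM in rlt1/2 and 1.92 to 3.4 CPM elsewhere, and the kinase gene AT5G56460 had 2.02 and 1.61 CPM in rlt1/2 and 2.63 to 4.53 CPM elsewhere. PR1, the classical marker of salicylic acid defence, had 10 and 13 counts in rlt1/2. It was at 0.438 and 0.564 CPM in rlt1/2, 5.54 and 16.2 CPM in the libraries labelled chr11/17, 2.08 and 1.14 CPM in fha2, and 5.54 and 1.87 CPM in Col. The PR1 libraries of a genotype were up to about 3-fold apart, and a fha2 library at 2.08 CPM lay above a Col library at 1.87 CPM.

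A pair of protein phosphatase 2C genes was in the same group. AT3G16800 was at 18.8 and 16.2 CPM in rlt1/2, 25.9 and 27.3 CPM in the libraries labelled chr11/17, 32.1 and 31.6 CPM in fha2, and 47.5 and 48.8 CPM in Col, with no overlap between any 2 genotypes. AT3G05640 averaged 3.9 CPM in rlt1/2, 12.2 CPM in the libraries labelled chr11/17, 20.0 CPM in fha2 and 15.2 CPM in Col. The phosphoinositide phosphatase gene 5PTASE11 had 0.745 and 0.477 CPM in rlt1/2 and 1.33 to 2.52 CPM in the other libraries.

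Stress proteins included the gene with the highest mean FPKM over the 3 other genotypes among the 69. This was KIN1, at 54.9 FPKM. KIN1, a small hydrophilic protein induced by cold and abscisic acid, averaged 17.1 FPKM in rlt1/2, 44.1 FPKM in the libraries labelled chr11/17, 58.1 FPKM in fha2 and 62.5 FPKM in Col. It was at 13.8 and 12.5 CPM in rlt1/2 and 38.3 and 30.2 CPM in the libraries labelled chr11/17. Fha2 had 47.5 and 44.2 CPM, and Col had 54.4 and 63.0 CPM. The genotypes did not overlap under TMM scaling. The gap of KIN1 between fha2 and Col depends on that scaling, and this difference was not called in the main fit. KIN1 counts include fractions, which shared reads can give, and KIN2 is a close copy of KIN1. ELIP2, an early light-induced protein of the thylakoid that protects against excess light, had another order. It was at 5.78 and 4.81 CPM in rlt1/2, 25.0 and 76.0 CPM in the libraries labelled chr11/17, 19.0 and 24.5 CPM in fha2, and 13.3 and 8.37 CPM in Col. Col was the second lowest genotype for ELIP2.

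Among enzymes, NIT4, a nitrilase that detoxifies cyanide by way of cyanoalanine, was at 3.59 and 3.9 CPM in rlt1/2, 16.5 and 21.4 CPM in the libraries labelled chr11/17, 7.82 and 7.94 CPM in fha2, and 9.21 and 7.73 CPM in Col. LUP1, which makes the triterpene lupeol, was at 7.75 and 7.42 CPM in rlt1/2, 17.4 and 12.5 CPM in the libraries labelled chr11/17, 14.9 and 14.0 CPM in fha2, and 23.0 and 20.7 CPM in Col. PGL5, annotated as a lactonase of the oxidative pentose phosphate pathway, was at 5.08 and 5.42 CPM in rlt1/2, 24.6 and 13.4 CPM in the libraries labelled chr11/17, 10.4 and 6.41 CPM in fha2, and 17.2 and 15.9 CPM in Col. NIT4 was highest in the libraries labelled chr11/17 and LUP1 in Col, while the PGL5 libraries labelled chr11/17 lay on both sides of Col.

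The lowest value of all relative to Col belonged to MRD1, named for a fall in the methionine over-accumulating mutant mto1. It was at 0.657 and 1.3 CPM in rlt1/2, 4.72 and 6.25 CPM in the libraries labelled chr11/17, 10.6 and 8.07 CPM in fha2, and 18.4 and 21.2 CPM in Col. All 4 genotypes were apart, and the log2 fold change of rlt1/2 over Col was -4.33 ± 0.25. MRD1 overlaps AT1G53490 and its counts include fractions. The uncharacterised gene AT1G22890 averaged 2.77 CPM in rlt1/2, 9.25 CPM in the libraries labelled chr11/17, 10.8 CPM in fha2 and 17.1 CPM in Col. AT4G31351, also uncharacterised, had 0.175 and 0.0867 CPM in rlt1/2, and the smaller of these lies under the level of 3 counts; elsewhere it had 0.618 to 1.18 CPM. The AT14A loci AT3G28290 and AT3G28300, near-identical copies with 1 listed gene between them, had identical counts in every library, fractions included, as an even split of shared reads gives, so they stand for 1 measurement. Each was at 1.14 and 0.607 CPM in rlt1/2, 11.5 and 7.06 CPM in the libraries labelled chr11/17, 3.49 and 2.76 CPM in fha2, and 2.58 and 3.09 CPM in Col.

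The order of the 3 other genotypes was then tested for all 69 genes, in a fit over all genes and with p-values adjusted over all of them. By mean CPM, 24 of the 69 had their highest level in the libraries labelled chr11/17, 19 in fha2 and 26 in Col. This split depends on the measure, as these CPM values use TMM factors, which were lowest in Col. By mean FPKM, Col lost the top place for a number of genes. CDF3, FLS2, SIGE, AT3G57020, AT1G47340 and AT1G64380 were among those highest in fha2 instead, and these are examples, not a full list. KIN1 and MRD1 were highest in Col both ways. Col is thus not read as the most common top genotype. In the libraries labelled chr11/17 against Col, 11 genes were called higher and 20 lower (edgeR quasi-likelihood test, adjusted p under 0.05). That is 44.9% of the 69, beside 69.1% of all 20866 genes tested (34.8% higher and 34.4% lower). In fha2 against Col, 2 were called higher and 7 lower, 13.0% of the 69 beside 15.1% of all genes (6.33% higher and 8.76% lower). Set against fha2, the libraries labelled chr11/17 had 14 called higher and 21 lower, 50.7% beside 70.7% (35.0% higher and 35.6% lower). The share in fha2 against Col lies near the background, and the shares in both comparisons with the libraries labelled chr11/17 lie under it. The rule left out genes as low in the libraries labelled chr11/17 as in rlt1/2. Median level over the 3 other genotypes was 5.26 FPKM, beside 10.7 FPKM for other genes with at least 1 FPKM in each. The part of either in these shares was not tested, so they are not read as a trait of the 69.

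Scaling to total counts in place of TMM moved the median of all genes on the log2 scale by 0.28 in the libraries labelled chr11/17 against Col and by 0.25 in fha2 against Col. With it, the libraries labelled chr11/17 had 16 of the 69 higher and 12 lower against Col, and fha2 had 13 higher and 4 lower. The split between the libraries labelled chr11/17 and fha2, where the shift was 0.03, did not move by as much as 1.5 times in either direction. The direction of the whole set against Col therefore depends on the scaling. The calls in fha2 were also few and rested on single libraries. Without fha2 replicate 1, without fha2 replicate 2 or without Col replicate 1 the 2 higher calls fell to 0, and the 7 lower calls fell to 1 without fha2 replicate 2 and to 3 without Col replicate 1. Of the 31 calls in the libraries labelled chr11/17 against Col, 21 were kept in each of the fits that left out a library, 7 higher and 14 lower, as were 21 of 35 against fha2 and 1 of 9 in fha2 against Col.

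**Figure D3:**
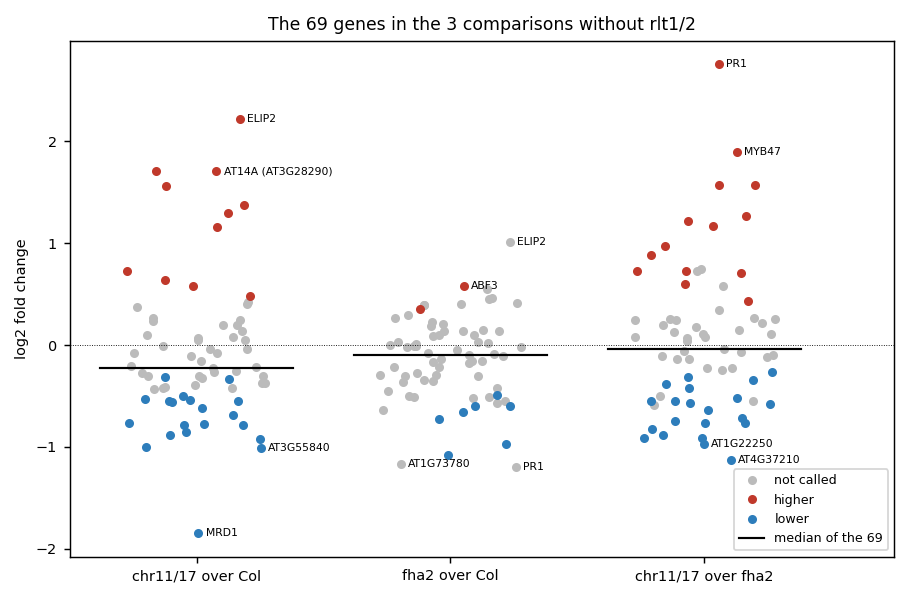
Log2 fold changes of the 69 genes in the 3 comparisons without rlt1/2, 1 point a gene, spread sideways only for legibility; red points were called higher, blue points lower and grey points were not called (edgeR, adjusted p under 0.05), and the black bar is the median of the 69. Calls run both ways in the comparisons with the libraries labelled chr11/17, from ELIP2 at 2.22 down to MRD1 at -1.85 against Col, and most points are grey in fha2 over Col.

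Against Col, the highest fold changes in the libraries labelled chr11/17 were those of ELIP2, at 2.22 ± 0.40 (SE; edgeR, adjusted p = 0.000284), and of the AT14A loci, at 1.71 ± 0.27 (edgeR, adjusted p = 0.000119). The place of ELIP2 rests on 1 library, since its fold change was 1.21 without chr11/17 replicate 2 and 2.81 without chr11/17 replicate 1, called both times. MYB47 followed at 1.37 ± 0.21 (edgeR, adjusted p = 6.57e-05) and the mannose-binding lectin gene AT1G52000 at 1.30 ± 0.19 (edgeR, adjusted p = 6.32e-05). PR1 was called higher at 1.56 ± 0.48 (edgeR, adjusted p = 0.0114), but its libraries overlapped those of Col, and the call was lost without chr11/17 replicate 2 (0.59, adjusted p = 0.266), without Col replicate 2 (0.98, adjusted p = 0.117) and under DESeq2 (adjusted p = 0.0807). The lowest were MRD1 at -1.85 ± 0.20 (edgeR, adjusted p = 2.86e-06), AT3G55840, related to a nematode resistance protein of beet, at -1.01, the CrcB family gene AT2G41705 at -0.997, the tetratricopeptide repeat gene AT4G37210 at -0.92 and AT1G22890 at -0.88. The call of AT3G55840 was lost without Col replicate 2 (edgeR, adjusted p = 0.073). Genes highest in the libraries labelled chr11/17 and genes intermediate there thus stood side by side among the 69.

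In fha2, MRD1 was lower than in Col at -1.08 ± 0.18 on the log2 scale (edgeR, adjusted p = 0.00355), a call lost without fha2 replicate 2 (adjusted p = 0.0624). PGL5 was at -0.98, AT3G05936 at -0.73, AT1G22890 at -0.66 and LUP1 at -0.60, and each was lost when at least 1 of the fha2 or Col libraries was left out, with an adjusted p of up to 0.222, 0.226, 0.141 and 0.14 (edgeR). The calls of AT3G05936 and LUP1 were also lost under total counts (adjusted p = 0.0751 and 0.0668). The phosphatase gene AT3G16800 was the one call that held with each library left out, at -0.60 ± 0.09 (edgeR, adjusted p = 0.00255, and at most 0.0447 with a library left out). ABF3 was called higher in fha2 at 0.58 ± 0.12 (edgeR, adjusted p = 0.0103), and the calcium-binding EF-hand gene AT5G04170 at 0.35 (edgeR, adjusted p = 0.028). Both were lost when fha2 replicate 1 (adjusted p = 0.0709 and 0.074), fha2 replicate 2 (0.063 and 0.221) or Col replicate 1 (0.0708 and 0.0533) was left out, and AT5G04170 also without Col replicate 2 (0.156).

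The libraries labelled chr11/17 and fha2 were set against the same Col libraries, so their calls are not independent. In neither comparison were 36 of the 69 genes called, 5 were called lower in both, and 0 were called higher in both. The 0 holds for the main fit only. ELIP2 was at 1.01 in fha2 against Col (edgeR, adjusted p = 0.116). It was called there in the fit of these 2 genotypes alone (adjusted p = 0.0074) and under total counts (1.27, adjusted p = 0.028). AT1G52000 was also called there under total counts (0.67, adjusted p = 0.0142). By the authors' q-values (DESeq2), ELIP2 was higher in both comparisons (0.0131 and 0.000377). The MATE efflux gene AT1G66760 was called higher in the libraries labelled chr11/17 and lower in fha2, and ABF3 was called the other way round, but none of these 4 calls held with each library left out. The largest adjusted p for AT1G66760 was 0.082 in the libraries labelled chr11/17, at 0.33 without Col replicate 2, and 0.247 in fha2, at -0.31 without Col replicate 1 (edgeR), and under total counts its fha2 call was lost (-0.23, adjusted p = 0.195). The lower call of ABF3 in the libraries labelled chr11/17, at -0.33 (edgeR, adjusted p = 0.0331), was lost without chr11/17 replicate 2 (adjusted p = 0.202), without Col replicate 2 (adjusted p = 0.398), in the fit of these 2 genotypes alone (adjusted p = 0.0547) and under total counts (-0.06, adjusted p = 0.722). The libraries labelled chr11/17 had a further 10 genes called higher and 14 called lower that were not called in fha2, while AT5G04170 was called higher and PGL5 lower in fha2 and in no other test against Col.

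Between the libraries labelled chr11/17 and fha2, which share no control, the highest fold changes were those of PR1 at 2.76 ± 0.53 (edgeR, adjusted p = 0.000439), MYB47 at 1.90 ± 0.21 (edgeR, adjusted p = 4.23e-06), the AT14A loci at 1.57 ± 0.26 (edgeR, adjusted p = 0.000163) and NIT4 at 1.27 ± 0.15 (edgeR, adjusted p = 6.41e-06). The lowest were AT4G37210 at -1.13 ± 0.12 (edgeR, adjusted p = 3.67e-06), the uncharacterised gene AT1G22250 at -0.98, AT2G41705 at -0.92, ABF3 at -0.91 ± 0.12 (edgeR, adjusted p = 2.74e-05) and AT5G17460 at -0.88. Each of these 9 differences was called in every fit that left out a library, but that of PR1 was 1.78 without chr11/17 replicate 2 (edgeR, adjusted p = 0.00463). Among the kinases, MKK5 was lower in the libraries labelled chr11/17, set against fha2, at -0.75 ± 0.16 (edgeR, adjusted p = 0.000941), FLS2 at -0.55 ± 0.16 (edgeR, adjusted p = 0.00891) and AT4G02410 at -0.55 (edgeR, adjusted p = 0.00319), with FLS2 lost without fha2 replicate 2 (adjusted p = 0.142) and AT4G02410 without fha2 replicate 1 (adjusted p = 0.057).

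The relatives of the chosen genes were not used by the rule, so rlt1/2 against Col could be tested in them. Families were listed after the members were known. Over 23 families with a tested relative, 247 relatives were tested, of which 52 were called higher and 54 lower in rlt1/2, beside 37.5% of all genes called in that comparison, 18.7% in each direction. Their median log2 fold change was 0.10, beside 0.01 over all genes. Total counts made this 101 higher and 37 lower.

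The sigma factors of the plastid were one such family. All 5 relatives of SIGE, the genes SIGA, SIG2, SIGC, SIG4 and SIGF, were called lower in rlt1/2 than in Col, and were so under total counts and with each library left out. SIGF fell by 1.08 ± 0.12 on the log2 scale, to 35.2 CPM in rlt1/2 against 74.4 CPM in Col (edgeR, adjusted p = 3.68e-05), and SIG2 was the least changed at -0.54 ± 0.08 (edgeR, adjusted p = 0.0003). The summed mesophyll markers were also lower, at 40140 and 39370 CPM in rlt1/2 against 75490 and 65300 CPM in Col, and their part in this result was not tested. All 5 relatives had higher means in rlt1/2 than in the libraries labelled chr11/17, as with SIGC at 20.2 CPM in rlt1/2 and 14.2 CPM in the libraries labelled chr11/17. Relatives of other chosen transcription factors also fell in rlt1/2 against Col. CDF1 was at -1.34 ± 0.16 and CDF2 at -0.69 ± 0.14 (edgeR, adjusted p = 4.01e-05 and 0.00192), the GATA factor gene GNC, the partner of CGA1 in greening, at -0.72 ± 0.14 (edgeR, adjusted p = 0.00179), and ABF4 and ABF1 at -0.74 and -0.73, while ABF2 and AREB3 were not called at -0.17 and -0.05. KIN2, the copy of KIN1, was at -0.91 ± 0.11 (edgeR, adjusted p = 4.5e-05). The counts of KIN1 include fractions, which shared reads can give, so KIN2 may not be measured apart from it.

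Other families split. All 3 relatives of NIT4, the nitrilases NIT1, NIT2 and NIT3, were called higher in rlt1/2, with NIT2 at 110.7 CPM in rlt1/2 against 14.5 CPM in Col (2.93 ± 0.13, edgeR, adjusted p = 6.91e-08). The call of NIT3, at 0.70, was lost without rlt1/2 replicate 2 (adjusted p = 0.121) or without Col replicate 2 (adjusted p = 0.117). ELIP1 was called higher at 1.17 ± 0.12 (edgeR, adjusted p = 1.6e-05), and averaged 51.5 CPM in rlt1/2, 159.1 CPM in the libraries labelled chr11/17, 29.8 CPM in fha2 and 23.0 CPM in Col. LUP2, the relative of LUP1, was called higher at 1.11 ± 0.15 (edgeR, adjusted p = 0.000125). ELIP1 and LUP2 had their lowest mean in Col. MKK4, the kinase most closely paired with MKK5 in immune signalling, was called higher at 0.99 ± 0.12 (edgeR, adjusted p = 6.85e-05), at 15.2 CPM in rlt1/2 against 7.67 CPM in Col. Of the BTB-TAZ relatives of BT1, BT4 rose to 127.3 CPM in rlt1/2, against 30.7 CPM in Col, and BT5 fell to 7.24 CPM in rlt1/2, against 19.0 CPM in Col (edgeR, adjusted p = 1.52e-07 and 7.53e-06). The clock gene PRR7 fell at -0.87 ± 0.09 (edgeR, adjusted p = 2.35e-05), PRR3 was called higher at 2.90 ± 0.60 (edgeR, adjusted p = 0.00245), and PRR5 and TOC1 were not called. PRR3 was low, at 1.18 and 0.911 CPM in rlt1/2 against 0.219 and 0.0533 CPM in Col, and its fold change was 4.16 without Col replicate 1 and 2.23 without Col replicate 2. The large families showed calls both ways, with 17 higher and 7 lower of 54 WRKY genes, 12 and 14 of 81 MYB genes, and 4 and 7 of 29 CRK genes. These became 30 and 3, 27 and 7, and 10 and 6 under total counts. Without rlt1/2 replicate 1 or without Col replicate 2 the 7 lower WRKY calls were 4, and the 14 lower MYB calls were 7 without rlt1/2 replicate 1, and 9 without rlt1/2 replicate 2 or without Col replicate 2.

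**Figure D4:**
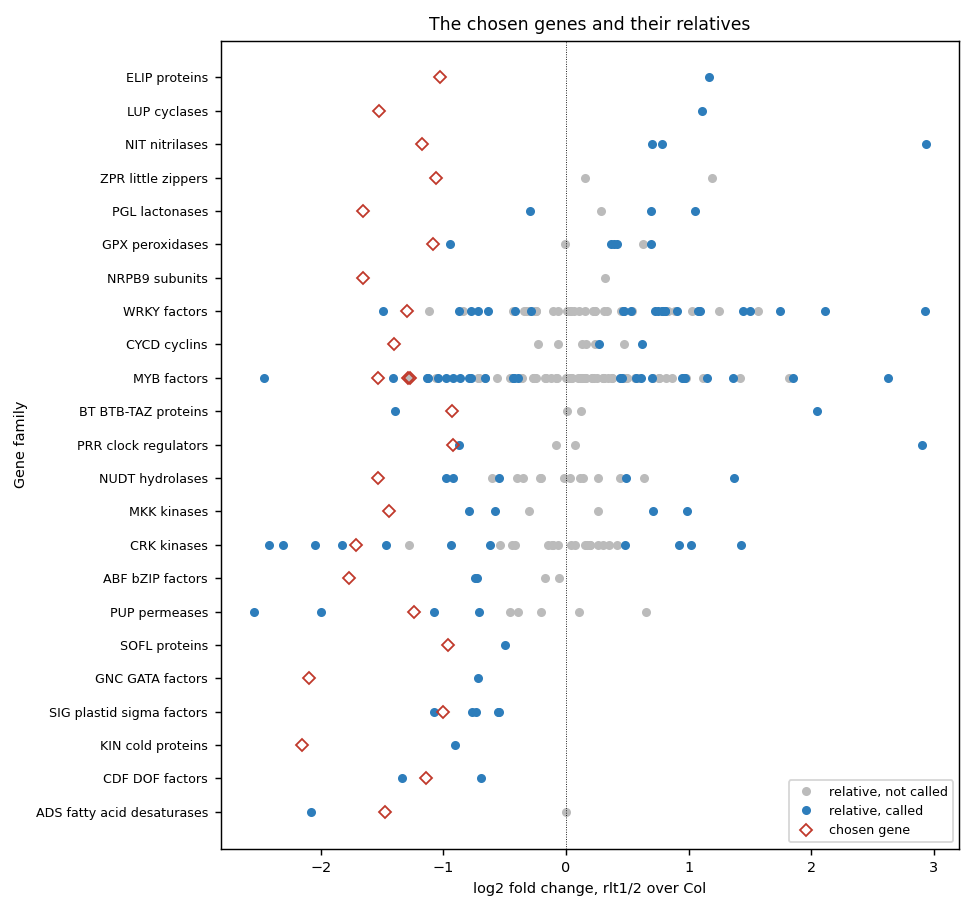
Log2 fold change of rlt1/2 over Col for the chosen genes (open red diamonds) and their tested relatives (blue where called by edgeR at adjusted p under 0.05, grey where not), by family, ordered by the median of the relatives. The sigma factor, CDF, KIN and GNC relatives lie on the same side of 0 as the chosen gene, though KIN2 may share reads with KIN1. The nitrilase, ELIP1 and LUP2 relatives lie on the other side, up to 2.93 for NIT2.

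Lists of pathway genes gave the setting. Outside the 69 genes, 133 genes of 9 lists were tested in rlt1/2 against Col, of which 42 were called higher and 28 lower (edgeR, adjusted p under 0.05), beside 37.5% of all genes called, 18.7% in each direction. Total-count scaling made this 69 higher and 13 lower. Only RLT1, RLT2 and PR1 of the list genes were among the 69. In salicylic acid defence, the list that holds PR1, 7 of 16 other genes were called higher and 2 lower. PR2, a glucanase that is usually induced together with PR1, was at 25.1 CPM in rlt1/2 against 4.51 CPM in Col (2.48 ± 0.24, edgeR, adjusted p = 1.02e-05), the regulator gene SARD1 was at 1.87 ± 0.36 (edgeR, adjusted p = 0.0015), and its partner CBP60G was at -1.13 ± 0.25 (edgeR, adjusted p = 0.0039). The 7 higher calls were 4 without rlt1/2 replicate 2, without Col replicate 1 or without Col replicate 2, and the 2 lower calls were 1 without either rlt1/2 library, either fha2 library or Col replicate 1. Of 19 NLR immune receptor genes, 2 were called higher and 10 lower, with ZAR1 at -0.68 ± 0.11 (edgeR, adjusted p = 0.000436). Under total counts, 4 were higher and 5 lower. Of 12 genes of sulfate uptake and sulfur starvation, 10 were called higher and 0 lower, and none of these genes was among the 69. Under total counts all 12 were higher. In the suberin and Casparian strip list 8 of 20 were higher and 1 lower, with 15 higher and 1 lower under total counts and a second lower call without Col replicate 1. Among aquaporins 3 of 22 were higher and 7 lower, and total counts turned this to 11 higher and 2 lower. In nitrate transport and assimilation 3 of 10 were higher and 4 lower, and in RNA-directed DNA methylation 2 of 19 higher and 3 lower. In the thalianol and marneral clusters 2 of 6 were higher and 0 lower. Among the other genes of the ISWI list, which includes MSI1 to MSI5, 5 of 9 were higher and 1 lower. MSI1, MSI3 and MSI5 were among the higher. Total counts made the counts of these lists, in the same order, 5 and 2, 4 and 2, 2 and 0, and 7 and 0. These small counts rested on single libraries of rlt1/2, fha2 and Col. Without rlt1/2 replicate 1 the aquaporins had 1 higher and 4 lower, the nitrate list 2 and 2, the methylation list 1 and 3, the thalianol and marneral list 0 and 0, and the ISWI list 2 and 1. Without Col replicate 1 they had 2 and 4, 2 and 2, 1 and 3, 1 and 0, and 1 and 1, and without Col replicate 2 they had 1 and 7, 3 and 4, 1 and 2, 0 and 0, and 3 and 1. Without rlt1/2 replicate 2 the ISWI list had 2 higher. Without either fha2 library the aquaporins had 2 higher and 4 lower, the thalianol and marneral list 1 higher and the ISWI list 3 higher.

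Level, structure and position of the 69 genes are given beside those of other genes, with no test. Their mean FPKM over the 3 other genotypes, which the rule used, ran between 1.12 for CYCD4;2 and 54.9 for KIN1. Its median was 5.26. With the 69 included, 16336 genes had at least 1 FPKM in each of these genotypes, and the median without the 69 was 10.7. Median transcript length was 1657 bases, beside 1591 for the other genes, and the median number of exons 3, beside 4. A single exon was annotated in 14 of the 69. Counts included fractions in 24, and another listed gene overlapped 22 of the 69, beside 6411 of all 25198 listed genes. This left 36 genes with whole counts and no overlap. Single exons and fractions were not counted over all genes. In 17 genes both rlt1/2 libraries held fewer than 30 counts. Chromosomes 1 to 5 held 16, 8, 17, 10 and 18 of the 69, or 23.2%, 11.6%, 24.6%, 14.5% and 26.1%, beside 26.3%, 15.6%, 19.7%, 15.2% and 23.2% of all listed genes. Besides the adjacent pair AT2G28710 and AT2G28720 and the AT14A loci, AT3G55840 and AT3G55890 lay near each other, with 4 listed genes between them.

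Promoters were read from 250 bases before to 50 bases after each annotated start, on both strands. The G-box CACGTG occurred in 11.6% of the 69, beside 8.11% of the 25129 other promoters. GATAAG, the I-box known from light-regulated genes, occurred in 23.2%, beside 14.7%, and AAAATATCT, the evening element of clock-regulated genes, in 5.8%, beside 2.85%. TTGACC or TTGACT, forms of the W-box bound by WRKY factors, occurred in 39.1%, beside 32.5%, and TATAAA in 55.1%, beside 52.0%. The telobox AAACCCTA at 2.9% and the site II element TGGGCC at 11.6% of the 69 stood beside 5.95% and 16.3%. None of these differences was tested. The evening element rests on 4 of the 69 promoters and the telobox on 2. None of these motifs contains another, and a match describes the sequence only.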

How the data were processed

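Messenger RNA was sequenced in 8 libraries, 2 for each of 4 genotypes, and samples were grouped by their labels alone. The authors deposited expected counts, that is estimated counts per gene that need not be whole, and FPKM values for each library with their genotype means, a unit taken from the values since no header names it. Per the file headers, the authors' deposited table of comparisons holds log2 fold changes and p-values with q-values. The submitters' processing notes name Bowtie2, RSEM, DESeq2 and TAIR10 without versions. No source used here gives strandedness, and reads of genes that overlap may be mixed.

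The 69 genes were found on the deposited FPKM values. Expected counts were rounded, filtered with filterByExpr (20866 of 25198 genes kept) and scaled by TMM factors, which were 0.841 and 0.895 in Col and between 1.02 and 1.09 elsewhere. A single fit took all libraries with genotype alone as its term. The edgeR 4.0.16 quasi-likelihood test (R 4.3.3) gave log2 fold changes and p-values, adjusted over all genes by Benjamini-Hochberg. Each SE was derived from the F statistic of that test. The scripts were tested on simulated data. A count of called genes uses adjusted p under 0.05. In every genotype the libraries differed by more than sampling noise, with a chi-square per degree of freedom between 4.31 and 12.4. Alternatives were RLE size factors, total counts, other filters, DESeq2 1.42.0, limma-voom (limma 3.58.1), fits of 2 genotypes, a replicate block, leaving out each library, other forms of the rule and, chosen after seeing the data, the genes with whole counts and no overlap.

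The members, the lists, the families, the roles and the tests were chosen with earlier results of these data known. Genes are named by a rule: ISWI and list members, the 12 with the lowest rlt1/2 level relative to the other genotypes, the 8 with the highest CPM, up to 5 called genes each way per tested comparison whose libraries do not overlap, neighbours, product families with 3 or more members, and genes at the limit of the rule. Relatives, other list genes and the members named for their known roles were named after their values were seen. Gene names, chromosomes, gene order and promoter motifs come from the RefSeq annotation of TAIR10.1, where all 25198 IDs matched, and since this name differs from TAIR10 no coordinates and no sequences are given.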

Additional observations from a re-analysis of the deposited data

How the results depend on the processing

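With 2 libraries per genotype, a count of calls moves with single libraries, and genes under 30 counts in rlt1/2 are measured loosely. Results by gene and alternative were labelled for members picked by the naming rule, without THO7 at its limit, and not for all 69. A result was the same if uncalled both times, whatever its sign, or called both times in the same direction. This held for 611 of 639 in chr11/17 against Col, 603 of 639 in fha2 against Col and 614 of 639 in chr11/17 against fha2. No result called in the main fit or in the alternative changed direction. Unless a subset is named, the counts of calls below are over all 69. Leaving out each library in turn gave 9 to 11 higher and 16 to 21 lower in chr11/17 against Col, 0 to 3 and 1 to 8 in fha2 against Col, 11 to 15 and 16 to 22 in chr11/17 against fha2, and 29 to 44 and 21 to 31 for the lists. Total counts gave 12 lower in chr11/17 against Col, 13 higher and 4 lower in fha2 against Col, and 69 higher and 13 lower for the lists. DESeq2 gave 1 higher in fha2 against Col and the fit of these 2 genotypes alone gave 4. Only the genes with whole counts and no overlap, which are fewer, gave 6 higher and 7 lower in chr11/17 against Col, 0 higher in fha2 against Col, and 8 higher and 9 lower in chr11/17 against fha2. The rule found 23 genes with a fold of at least 2, 27 with a minimum of 5 FPKM, and 122 on CPM scaled by TMM, of which 64 were among the 69. Deviations of same-numbered libraries had correlations of -0.116 to 0.103. The correlation of rlt1/2 and chr11/17, at 0.103, lay just past the limit of 0.1 set for this. Whether the numbers mark a shared batch is thus not settled. With the replicate block the counts were 11 and 20, 2 and 7, 15 and 21, and 41 and 26 for the lists, in the order above. By the q-values in the authors' deposited table, 9 of the 69 were higher and 14 lower in chr11/17 against Col, and 2 were higher and 5 lower in fha2 against Col. Where a count moved, the cause was not tested beyond the construction of the alternative.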
